A study of Mus musculus with 10 samples.

Results

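The genes of respiratory complex I were chosen by symbol, as every mouse gene named Nduf followed by a, b, c, s, v, ab or af and a number. The annotation holds 55 such genes, and 48 of them were among the 21098 named genes of the count table used here. They comprise 37 genes of subunits, 8 genes of assembly factors (Ndufaf) and 3 that were listed apart, namely Ndufa4, which is now taken as a complex IV subunit, its relative Ndufa4l2, and Ndufb11b, a copy of Ndufb11. The other 7 annotated symbols are pseudogenes and suffixed copies and were not analysed here.

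Complex I, or NADH:ubiquinone oxidoreductase, is the entry enzyme of the mitochondrial respiratory chain. It takes electrons from the NADH that the citric acid cycle and fatty acid oxidation produce, passes them over a chain of iron-sulfur clusters to ubiquinone, and pumps protons across the inner membrane. It is L-shaped, with a peripheral arm in the matrix that holds the flavin and the iron-sulfur clusters and a membrane arm that pumps. Core subunits carry out the reaction, those of the membrane arm being encoded in mitochondrial DNA and those of the peripheral arm in the nucleus, while accessory subunits surround the core and assembly factors build the enzyme without staying in it. The gastrocnemius (GAS) is a mixed muscle, and its oxidative fibers hold more mitochondria than its glycolytic ones.

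Bulk RNA sequencing was performed on GAS of male C57BL/6J mice of WT genotype with diet-induced obesity (DIO). All mice were put on a high-fat diet (HFD, D12492i) at 9 weeks of age and kept on it for 9 weeks before treatment. The 5 mice of the ASO group then received a subcutaneous antisense oligonucleotide against miR-22 (RES-010), a mixmer of DNA and locked nucleic acid, at 10 mg/kg once a week for 14 weeks. The age of 30 weeks that the series gives is less than these periods add up to, and the difference could not be settled here. The 5 control mice (CTRL) received a matched volume of saline, so no oligonucleotide of another sequence was given for comparison. The labels number the libraries of each group as separate mice, and p-values refer to the spread between these samples.

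The counts cover segments of at most 500 bp at the 3′ end of transcripts, and levels are given as CPM, a gene's count relative to the TMM-scaled total of its library. Library totals ran from 1606909 to 2116720 counts in CTRL and from 2239186 to 2632560 with the ASO, so every ASO library was deeper. Neither miR-22 nor its host gene is counted, so the labels could not be checked against the target, and no mitochondrially encoded subunit is counted. The summed level of 5 skeletal muscle markers (Ckm, Acta1, Tnnt3, Pvalb and Des) ran from 38928 to 75710 CPM in CTRL and from 80662 to 117968 CPM with the ASO, with Tnnt3 at 0 in all libraries. Of these markers 3 were tested and 1 was called higher (11.7% of all tested genes were). Pvalb and Tnnt3 also belong to the fast fiber markers used below. In bulk tissue, fewer cells of a type and less RNA per cell cannot be told apart. A distal-over-proximal index, the median log2 ratio of counts on the most distal segment to counts at least 1000 bp upstream over 1575 genes, ran from -0.44 to 0.49 in CTRL and from 1.18 to 1.69 with the ASO. With every library drawn down to the lowest total, 18 tested complex I subunits were higher and 2 lower and the median log2 fold change was 0.65, against 19, 2 and 0.65 at full depth. The part of muscle content and of this index in the results below was not tested.

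The ASO was designed against miR-22, so the places where complex I transcripts match its seed are shown first. The mature miR-22-3p sequence comes from RefSeq, with the seed (bases 2 to 8) in capitals, and the sites below it come from the longest annotated 3′UTR of each tested gene on GRCm39, with the match to the seed in capitals.
mmu-miR-22-3p: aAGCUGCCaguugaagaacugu
Ndufa10 (chr1:92365877-92365905, minus strand): agcctgcagcctggtGGCAGCTggcatgc
Ndufa11 (chr17:57028526-57028554, plus strand): gccttctcaacagcaGGCAGCTccgtgat
Ndufaf7 (chr17:79255234-79255262, plus strand): aactgggaaggagtcGGCAGCTctccact
Ndufb10 (chr17:24941278-24941306, minus strand): cctatttaactgttaGGCAGCTggggatc
Ndufb3 (chr1:58635282-58635310, plus strand): gttctgcatatagcaGGCAGCTacaaaat
Ndufb4 (chr16:37467412-37467440, minus strand): gaggaacagaaggatGGCAGCTaagggca
Ndufc1 (chr3:51310647-51310675, minus strand): tctaatgcggactccGGCAGCTttctcgc
In Ndufb3 and Ndufb4 the match is followed by an A, and in the other 5 it is not. The Ndufa11 site lies in the 3′UTR of another transcript and in an intron of the canonical transcript. The Ndufb10 site lies 258 bp upstream of the end of its only counted segment, which covers 57 bp of canonical 3′UTR. Those of Ndufa10, Ndufb3, Ndufb4 and Ndufc1 lie 1110, 173, 106 and 2342 bp past the segment with most counts. Whether these sites lie in the canonical 3′UTR was not determined. Ndufaf6 and Ndufs5 also hold a match but were not tested, so 9 of 48 members hold one, while 16.3% of 21540 genes with an annotated 3′UTR and 21.7% of 7781 tested genes do. The longest annotated 3′UTR had a median of 634.5 nt over the members and 1409 nt over all genes. The values of these genes are given with their groups.

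Most tested complex I subunit genes were higher in the muscle of ASO mice, and 2 were lower. Of the 37 subunit genes, 29 had enough counts to be tested by edgeR's quasi-likelihood method, with p-values adjusted after Benjamini and Hochberg over all 7819 tested genes. Of these, 19 were higher at an adjusted p under 0.05, which compares with 11.7% of all tested genes called higher, and 2 were lower, which compares with 17.5% called lower. The median log2 fold change of the 29 was 0.65, against -0.03 over all tested genes, and the range was from -2.41 for Ndufa9 to 1.03 for Ndufa13 and Ndufb7. All 5 ASO libraries lay above all 5 CTRL libraries for 7 subunits (7.98% of all tested genes did so), and below them for 2 (13.4% of all tested genes). The filter on low counts was passed by 28 of the 29 with at least 10 counts in every library, and Ndufa9 passed it through its CTRL libraries.

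The number of calls changed under other choices. Without CTRL replicate 5, 11 of the 29 were higher, and when each gene was counted on its most distal segment alone, 21 could be tested, of which Ndufa13 and Ndufb7 were higher and Ndufa9, Ndufs4 and Ndufb5 were lower. Counting distal segments moved the median of the genes tested both ways by -0.09. Ndufa1 and Ndufb11 have 1 segment each and so keep their counts. Their log2 fold changes fell from 0.64 to 0.39 and from 0.83 to 0.58 (adjusted p = 0.086 and 0.064). The part of scaling in the lost calls was not tested. Under scaling by total counts, which moved the median of all tested genes by -0.18, 13 subunits were higher and 3 lower, with a median log2 fold change of 0.47. The split over all genes was 916 higher and 1365 lower with TMM, 528 and 1821 with total counts, and 1261 and 1207 with upper-quartile scaling.

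**Figure D1:**
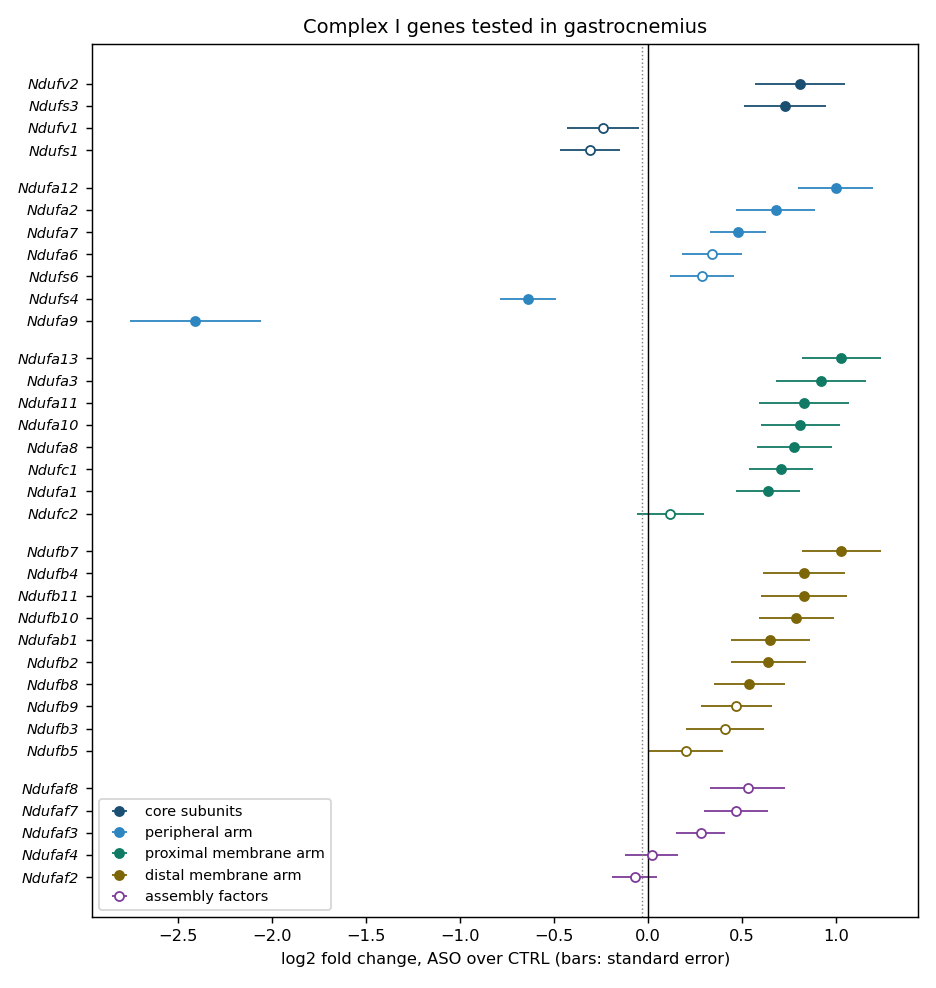
Log2 fold change (ASO over CTRL, horizontal axis) of the 29 tested complex I subunit genes and 5 tested assembly factors, grouped by their place in the enzyme, with bars for the standard error, filled points for an adjusted p under 0.05 and open points for the rest. The dotted line marks the median of all 7819 tested genes, and the membrane-arm genes lie to the right of it, from 0.12 for Ndufc2 to 1.03, while Ndufa9 stands apart at -2.41.

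Among the nuclear core subunits of the peripheral arm, 4 of 7 were tested, and Ndufv2 and Ndufs3 were higher (11.7% of all tested genes were) while Ndufv1 and Ndufs1 did not pass the test. Ndufv2 holds an iron-sulfur cluster beside the NADH site, and its level was 434, 337, 192, 266 and 264 CPM in CTRL and 445, 386, 800, 461 and 530 CPM with the ASO. CTRL replicate 1 lay among the ASO libraries and ASO replicate 3 lay far above the others. The means were 299 ± 91.5 CPM and 524 ± 163 CPM (SD, n = 5 each), with a log2 fold change of 0.81 (SE 0.24) and an adjusted p of 0.024.

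Ndufs3, a core subunit without a cofactor near the ubiquinone site, had 32.5, 26.1, 20.3, 28.3 and 18.5 CPM in CTRL and 39.6, 31.0, 62.6, 35.9 and 40.1 CPM with the ASO. The groups met at 1 library each, CTRL replicate 1 lying above ASO replicate 2. The log2 fold change was 0.73 (SE 0.22, adjusted p = 0.025). Both calls were lost without CTRL replicate 5 (adjusted p = 0.059 for Ndufv2 and 0.063 for Ndufs3) and without ASO replicate 3 (0.053 and 0.051). The call of Ndufv2 was also lost without CTRL replicate 4 (0.061), and that of Ndufs3 without CTRL replicate 3 (0.054).

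Ndufv1 binds NADH and the flavin and is where electrons enter the enzyme. Its level was 2235, 1459, 1156, 1661 and 1568 CPM in CTRL and 1240, 1225, 1168, 1639 and 1572 CPM with the ASO, so that the ASO libraries lay within the range of the controls. The log2 fold change was -0.24 (SE 0.19, adjusted p = 0.35). Ndufs1, the largest subunit and the holder of several iron-sulfur clusters, had 567, 456, 330, 420 and 368 CPM in CTRL and 328, 355, 314, 388 and 343 CPM with the ASO. Its log2 fold change was -0.31 (SE 0.16, adjusted p = 0.15), and it passed the test as lower when libraries were scaled by total counts (-0.48, adjusted p = 0.031). Ndufs7, which lies at the ubiquinone site, had 0 counts in all libraries, and Ndufs8, which carries iron-sulfur clusters, had 1 count in ASO replicate 3.

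**Figure D2:**
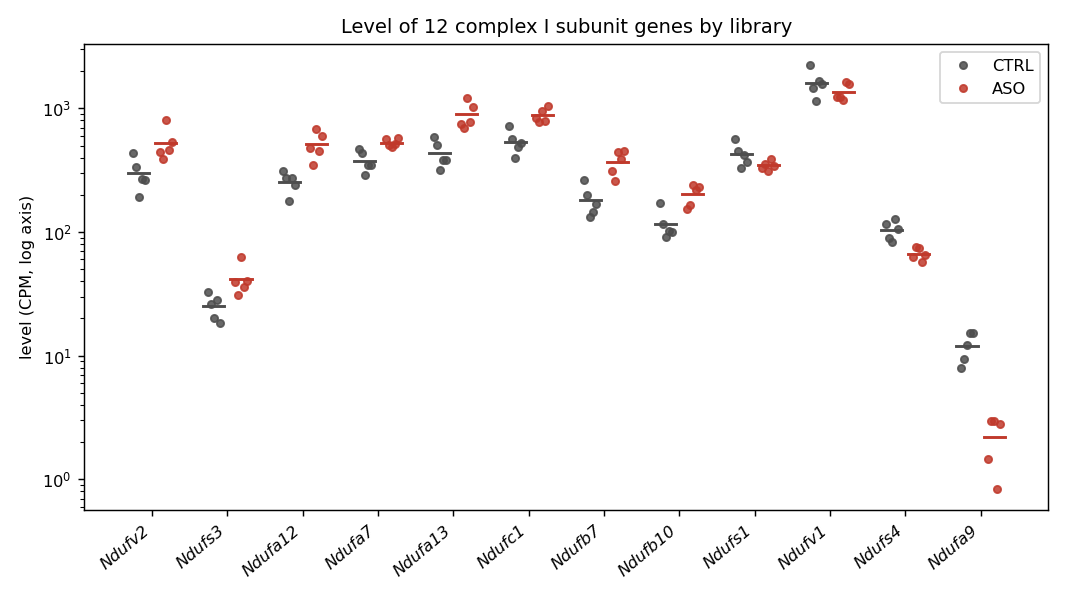
Level in CPM on a log axis of 12 complex I subunit genes in each of the 10 libraries (grey CTRL, red ASO), with a line at each group mean. The groups are apart for Ndufa12, Ndufa7, Ndufa13 and Ndufc1, with the ASO libraries higher, and for Ndufs4 and Ndufa9, with the ASO libraries lower, and they overlap for the other 6.

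The accessory subunits of the peripheral arm moved in both directions. Of 9 genes, 7 were tested, and Ndufa12, Ndufa2 and Ndufa7 were higher, Ndufa9 and Ndufs4 were lower, and Ndufa6 and Ndufs6 did not pass. Among all tested genes, 11.7% were higher and 17.5% lower. The median log2 fold change of the 7 was 0.34. Ndufa12, which sits beside the NADH-oxidizing module, had 313, 275, 178, 273 and 239 CPM in CTRL and 478, 350, 675, 452 and 603 CPM with the ASO, without overlap. The means were 256 ± 50.6 CPM and 512 ± 128 CPM (SD, n = 5 each), 1.00 apart as log2 fold change (SE 0.20, adjusted p = 0.0033).

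Ndufa7 had 473, 434, 287, 347 and 351 CPM in CTRL and 561, 507, 490, 513 and 573 CPM with the ASO, again without overlap, with a log2 fold change of 0.48 (SE 0.15, adjusted p = 0.029). Ndufa2, a small subunit with a thioredoxin-like fold, had means of 426 ± 134 CPM and 683 ± 130 CPM (SD, n = 5 each) and a log2 fold change of 0.68 (SE 0.21, adjusted p = 0.031). Its CTRL replicate 1 at 609 CPM lay above ASO replicates 1 and 2. The calls of Ndufa7 and Ndufa2 were both lost when CTRL replicate 3, 4 or 5 or ASO replicate 5 was left out, that of Ndufa7 also without ASO replicate 1 and that of Ndufa2 also without ASO replicate 3, with adjusted p from 0.056 to 0.08. Ndufa6, a binding partner of the acyl carrier protein, had the highest CPM of the group without correction for length, and its log2 fold change was 0.34 (SE 0.16, adjusted p = 0.13), while that of Ndufs6 was 0.29 (SE 0.17, adjusted p = 0.23). Both passed without CTRL replicate 1 (adjusted p = 0.045 and 0.044).

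Ndufa9 sits at the joint of the peripheral and membrane arms close to the ubiquinone site and binds NADPH. Its counts were 17, 20, 25, 26 and 27 in CTRL and 3, 7, 7, 2 and 6 with the ASO, or 8.02, 9.33, 12.3, 15.3 and 15.2 CPM against 1.45, 2.97, 2.96, 0.835 and 2.83 CPM. The groups did not overlap, and the log2 fold change was -2.41 (SE 0.35, adjusted p = 5.9e-04), 5.3-fold lower with the ASO. All of its counts lay on 1 segment of 298 bp in the 3′UTR (chr6:126798684-126798981, minus strand, GRCm39), so the value rests on few reads.

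Ndufs4 is needed for a stable NADH-oxidizing module, and its loss in mice is a model of Leigh syndrome. Its level was 116, 89.5, 82.5, 127 and 106 CPM in CTRL and 62.8, 75.2, 74.0, 56.8 and 65.1 CPM with the ASO. All ASO libraries lay below all CTRL libraries, with means of 104 ± 18.6 CPM and 66.8 ± 7.78 CPM (SD, n = 5 each) and a log2 fold change of -0.64 (SE 0.15, adjusted p = 0.0076). Ndufa5 had 0 counts in all libraries, and Ndufv3 had 75 counts over all libraries and was removed by the filter on low counts.

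Of the 9 accessory subunits of the proximal membrane arm, 8 were tested, 7 were higher and 4 of these had no overlap between the groups. Among all tested genes, 11.7% were higher and 7.98% had all ASO libraries above all CTRL libraries. The median log2 fold change of the 8 was 0.79. Ndufa13, which is also known as Grim19 and reaches from the matrix through the membrane, had 588, 508, 315, 385 and 385 CPM in CTRL and 743, 689, 1224, 778 and 1035 CPM with the ASO. The groups did not overlap, and the means of 436 ± 110 CPM and 894 ± 227 CPM (SD, n = 5 each) gave a log2 fold change of 1.03 (SE 0.21) with an adjusted p of 0.0037. All of its counts lay on a segment of 41 bp.

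Ndufc1, a small membrane subunit, had 722, 564, 395, 484 and 528 CPM in CTRL and 832, 771, 960, 797 and 1047 CPM with the ASO, without overlap, and a log2 fold change of 0.71 (SE 0.17, adjusted p = 0.0086). Ndufa1, an X-linked subunit needed for assembly of the membrane arm, had 384, 285, 224, 304 and 249 CPM in CTRL and 393, 388, 517, 446 and 505 CPM with the ASO. It was without overlap by a small margin, and its log2 fold change was 0.64 (SE 0.17, adjusted p = 0.012). Ndufa3 was the fourth without overlap, with means of 67.4 ± 23.3 CPM and 128 ± 31.3 CPM (SD, n = 5 each) and a log2 fold change of 0.92 (SE 0.24, adjusted p = 0.013).

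Ndufa10, which has a fold like that of nucleoside kinases, had 914, 665, 487, 630 and 596 CPM in CTRL and 955, 849, 1600, 1124 and 1250 CPM with the ASO. ASO replicate 2 lay below CTRL replicate 1, and the log2 fold change was 0.81 (SE 0.21, adjusted p = 0.011). Ndufa8, a twin-cysteine protein of the intermembrane space, had 753, 626, 444, 597 and 483 CPM in CTRL and 852, 735, 1395, 957 and 1034 CPM with the ASO, and its groups met in the same way. Its log2 fold change was 0.78 (SE 0.20, adjusted p = 0.012).

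Ndufa11, a membrane subunit at the contact with complex III in the supercomplex, had a log2 fold change of 0.83 (SE 0.24, adjusted p = 0.021), and its call was lost without CTRL replicate 5 (0.055) or ASO replicate 5 (0.051). Ndufc2 did not pass, with means of 188 ± 51.3 CPM and 204 ± 25.8 CPM (SD, n = 5 each) and a log2 fold change of 0.12 (SE 0.18, adjusted p = 0.66) that turned to -0.06 with total counts. Ndufs5 had 0 counts in all libraries.

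Of the 12 genes of the distal membrane arm, 10 were tested, 7 were higher, and 1 of these had no overlap. Among all tested genes, 11.7% were higher, and 7.98% were above without overlap, which is close to 1 of 10. The median log2 fold change of the 10 was 0.65, and all were above 0. Ndufb7, a twin-cysteine protein on the intermembrane face, had 262, 198, 133, 145 and 168 CPM in CTRL and 311, 258, 440, 389 and 450 CPM with the ASO. CTRL replicate 1 lay just above ASO replicate 2, and the means of 181 ± 51.4 CPM and 370 ± 83.2 CPM (SD, n = 5 each) gave a log2 fold change of 1.03 (SE 0.21, adjusted p = 0.0041).

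Ndufb4 was the gene without overlap, with 204, 187, 122, 131 and 126 CPM in CTRL and 257, 223, 415, 215 and 257 CPM with the ASO and a log2 fold change of 0.83 (SE 0.22, adjusted p = 0.013). ASO replicate 3 stood apart from the other ASO libraries here. Ndufb10, which is required for assembly of this arm, had 173, 116, 91.4, 102 and 99.9 CPM in CTRL and 154, 164, 241, 220 and 230 CPM with the ASO. CTRL replicate 1 lay above ASO replicates 1 and 2, and the log2 fold change was 0.79 (SE 0.20, adjusted p = 0.01). Ndufb11, an X-linked subunit, had means of 416 ± 133 CPM and 738 ± 166 CPM (SD, n = 5 each) and a log2 fold change of 0.83 (SE 0.23, adjusted p = 0.016).

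The other 3 called genes of this arm were closer to the threshold. Ndufb2 had a log2 fold change of 0.64 (SE 0.20, adjusted p = 0.032), Ndufab1, the mitochondrial acyl carrier protein, 0.65 (SE 0.21, adjusted p = 0.037), and Ndufb8, whose protein is often used in immunoblots as a marker of assembled complex I, 0.54 (SE 0.19, adjusted p = 0.046). The call of Ndufb2 was lost when CTRL replicate 3, 4 or 5 or ASO replicate 3 or 5 was left out (adjusted p from 0.061 to 0.082), and that of Ndufab1 without any of these or CTRL replicate 2 (0.052 to 0.085). The call of Ndufb8 was lost when CTRL replicate 2, 3, 4 or 5 or ASO replicate 1, 3, 4 or 5 was left out (0.054 to 0.1).

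Ndufb9, Ndufb3 and Ndufb5 did not pass, with log2 fold changes of 0.47 (SE 0.19, adjusted p = 0.076), 0.41 (SE 0.21, adjusted p = 0.17) and 0.20 (SE 0.20, adjusted p = 0.46). Ndufb3 had 273, 169, 153, 166 and 135 CPM in CTRL and 200, 169, 294, 285 and 240 CPM with the ASO, so that CTRL replicate 1 stood apart from the other control mice. Without that library, Ndufb3 and Ndufb9 passed (0.61, adjusted p = 0.028, and 0.64, adjusted p = 0.013). Ndufb5 had the highest CPM of the group without correction for length.

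Subunits with at most 1 count included Ndufs5, Ndufs7, Ndufa5, Ndufb1, Ndufs8 and Ndufb6. Their segments hold from 0 to 12 bases outside overlaps with other segments, so a count of 0 here does not show that the gene is silent. The same holds for the assembly factor Ndufaf1, with 0 such bases. Reads of Ndufa2, Ndufa3, Ndufb2, Ndufaf3, Ndufa4l2 and Ndufb6 are uncertain where their segments overlap a gene on the opposite strand, by 4 to 188 bases of a segment, since no strand option is named for the counting. Of the 3 genes listed apart, Ndufa4l2 had a log2 fold change of 0.17 (SE 0.27, adjusted p = 0.66), and Ndufa4 and Ndufb11b had 8 and 27 counts in all, 26 of the latter in CTRL replicate 5.

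No Ndufaf assembly factor passed the test with edgeR, and 3 of the 5 tested had an unadjusted p under 0.05. DESeq2 and limma-voom also called 0, while RLE scaling called 2 and upper-quartile scaling 3, all higher. These 2 scalings also called more genes higher over the whole table, 1053 and 1261 against 916 with TMM. Ndufaf8, a partner of Ndufaf5, had 32.5, 27.0, 21.2, 20.1 and 23.6 CPM in CTRL and 34.3, 30.2, 46.5, 27.5 and 42.4 CPM with the ASO, with a log2 fold change of 0.53 (SE 0.20, adjusted p = 0.057). Ndufaf7, a mitochondrial methyltransferase, had 22.6, 23.3, 18.3, 18.3 and 18 CPM in CTRL and 21.7, 26.3, 34.3, 29.6 and 27.8 CPM with the ASO, with a log2 fold change of 0.47 (SE 0.17, adjusted p = 0.055). In each gene 4 or more ASO libraries lay at or above the second highest control library, yet the groups overlapped. Ndufaf8 passed without CTRL replicate 1 or ASO replicate 4 (both adjusted p = 0.031) and Ndufaf7 without ASO replicate 1 (0.032).

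Ndufaf3 and Ndufaf4, which act as partners on the ubiquinone module, had log2 fold changes of 0.28 (SE 0.13, adjusted p = 0.12) and 0.02 (SE 0.14, adjusted p = 0.94). Ndufaf2, a paralog of Ndufa12 that holds its place during assembly, had 46.7 ± 3.11 CPM in CTRL and 44.4 ± 2.95 CPM with the ASO (SD, n = 5 each) and a log2 fold change of -0.07 (SE 0.12, adjusted p = 0.68), against 1.00 for Ndufa12. Ndufaf5, which hydroxylates the core subunit Ndufs7, and Ndufaf6 had 79 and 69 counts in all and were removed by the filter. The median log2 fold change of the 5 tested factors was 0.28, and whether it differed from that of the subunits was not tested.

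Of 14 listed assembly genes without an Nduf symbol, 11 were tested, and Acad9, Nubpl and Dmac2 were lower (17.5% of all tested genes were) while Tmem126a was higher (11.7% of all tested genes were). The median log2 fold change of the 11 was -0.26, and 5 of them were above 0. Acad9, an acyl-CoA dehydrogenase that also works in the assembly of the membrane arm, fell from 70.0 ± 11.6 to 32.5 ± 8.76 CPM (SD, n = 5 each; -1.11 on the log2 scale, SE 0.21, adjusted p = 0.0023). Dmac2, a factor of the distal membrane arm, fell from 61.6 ± 13.5 to 34.0 ± 4.91 CPM (SD, n = 5 each; -0.85, SE 0.18, adjusted p = 0.0041). Nubpl, which delivers iron-sulfur clusters to complex I, fell from 7.90 ± 2.13 to 3.36 ± 1.42 CPM (SD, n = 5 each; -1.22, SE 0.33, adjusted p = 0.015) and did not reach 10 counts in every library. Nubpl passed the filter on low counts through its CTRL libraries, as Ndufa9 did. All 5 ASO libraries lay below all CTRL libraries for these 3 genes (13.4% of all tested genes did so).

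Tmem126a, a membrane-arm factor, rose from 170 ± 29 to 247 ± 34.6 CPM (SD, n = 5 each; 0.53, SE 0.15, adjusted p = 0.021), and this call was lost with total counts (0.35, adjusted p = 0.058). Ecsit, which works beside Acad9, had 0 counts. The log2 fold changes of the others that did not pass ran from -0.82 for Foxred1 to 0.44 for Tmem186.

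The subunits varied together across libraries. The summed level of the 37 subunits was 16778, 12735, 8754, 11527 and 10870 CPM in CTRL and 15209, 13754, 20305, 16776 and 18595 CPM with the ASO, means of 12133 ± 2972 and 16928 ± 2609 CPM (SD, n = 5 each) and a ratio of 1.4. CTRL replicate 1 lay above 3 of the 5 ASO libraries, and the other 4 control libraries lay below all of them. Of the 29 tested subunits, CTRL replicate 1 was the highest control in 27, CTRL replicate 3 was the lowest of all 10 libraries in 22, and ASO replicate 3 was the highest of all 10 in 18.

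CTRL replicate 3, with the lowest subunit level, also had the highest summed level of 7 adipocyte markers (Adipoq, Plin1, Fabp4, Lep, Cidec, Retn and Cfd), 13740 CPM against 846 to 2382 CPM in the other controls and 720 to 3758 CPM with the ASO. Its 7 macrophage markers (Cd68, Adgre1, Csf1r, C1qa, C1qb, C1qc and Mrc1) summed to 1005 CPM against 160 to 386 CPM in the other controls and 41.5 to 285 CPM with the ASO, with Adgre1 at 0 throughout. Without CTRL replicate 3, 13 of the 29 subunits were higher and their median log2 fold change was 0.55, and without CTRL replicate 1, 23 were higher and the median was 0.82. Without both CTRL replicate 1 and ASO replicate 3, an alternative added after the data were seen, 22 were higher.

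The summed level of 8 slow fiber markers was 2023, 348, 327, 791 and 79.2 CPM in CTRL and 63.7, 53.5, 1265, 6112 and 769 CPM with the ASO, so that it overlapped widely and was highest in ASO replicate 4, where the subunit sum was in the middle of its group. The summed level of 8 fast fiber markers ran from 17444 to 33920 CPM in CTRL and from 32746 to 73486 CPM with the ASO. Tnnt1 among the slow markers and Tnnt3 among the fast markers were at 0. Markers of endothelium, blood, smooth muscle and Schwann cells overlapped between the groups.

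**Figure D3:**
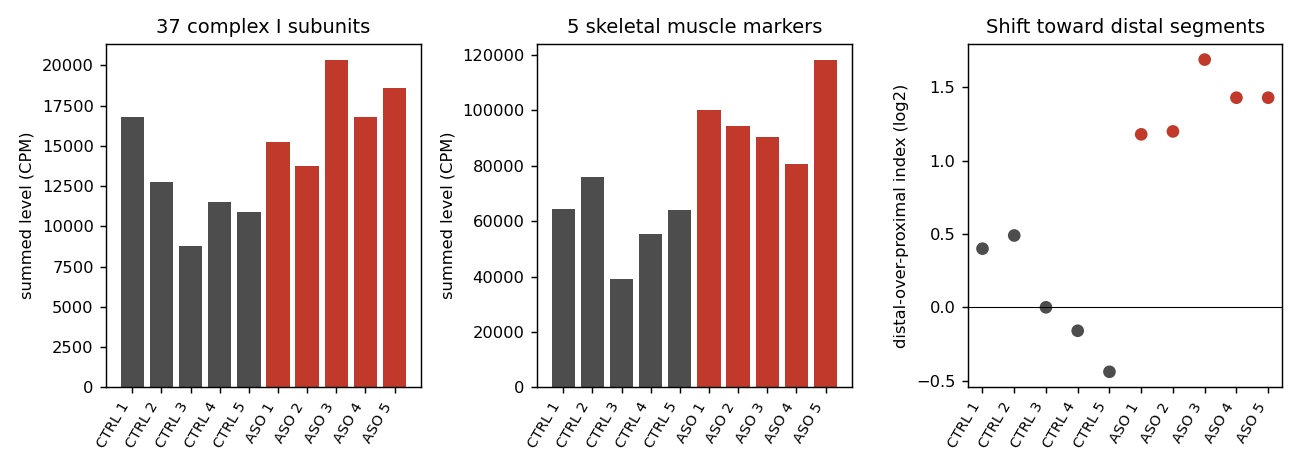
For each library (CTRL 1 to 5 grey, ASO 1 to 5 red), the summed CPM of the 37 complex I subunit genes, the summed CPM of 5 skeletal muscle markers, and the distal-over-proximal index on a log2 scale. The subunit sums overlap through CTRL replicate 1 at 16778 CPM, while the muscle markers and the index do not overlap between the groups.

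Where a gene has several counted segments, these did not always move alike. Of the 29 tested subunits, 15 had counts on 1 segment, and 26 had at least 90% of their counts on 1 segment. This main segment was the most distal one in 15, and its median length was 487 bp, with 8 under 100 bp. The main segment overlapped the 3′UTR of the canonical transcript in all 29 and its coding sequence in 9. In several genes most of this segment lay in an intron of the canonical transcript. This held for 462 of 500 bp in Ndufc1, 420 in Ndufb2, 367 in Ndufab1, 343 in Ndufa11 and 340 in Ndufb8. It also held for 337 of 500 bp in Ndufa3, 300 in Ndufa6, 289 in Ndufa7, 282 in Ndufb5 and 266 in Ndufs1. Counts of such genes can therefore include reads from outside the mature 3′UTR and coding sequence.

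Ndufv1 was the clearest case. Its segment at chr19:4057502-4058001 (minus strand, GRCm39) held 59.7% of its counts and had 1136, 755, 541, 712 and 630 CPM in CTRL and 834, 800, 1008, 1198 and 1209 CPM with the ASO, a log2 fold change of 0.42 (SE 0.21, adjusted p = 0.13). The segment at chr19:4059418-4059917, which held 40.3% and covers coding sequence and intron of the canonical transcript, had 1065, 679, 615, 943 and 948 CPM in CTRL and 413, 427, 220, 496 and 393 CPM with the ASO. There the groups did not overlap, and the log2 fold change was -1.12 (SE 0.23, adjusted p = 0.0017). Fits of each segment on its own were added after the data were seen.

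In Ndufs4 both segments with at least 10% of the counts were lower with the ASO. The most distal one (chr13:114424331-114424830, minus strand), with 82.6% of the counts, had a log2 fold change of -0.39 (SE 0.15, adjusted p = 0.058), and the one 700 bp upstream, with 16.4%, of -1.82 (SE 0.38, adjusted p = 0.0023) without overlap. In Ndufb5 the segment at chr3:32804896-32805395 (plus strand), with 65.9% of the counts, had a log2 fold change of 0.47 (SE 0.22, adjusted p = 0.11), and that at chr3:32802121-32802620, with 29.7%, of -0.03 (SE 0.17, adjusted p = 0.89). The most distal segment of Ndufb5, with 4.2% of the counts, had 332, 179, 130, 138 and 127 counts in CTRL and 85, 98, 59, 160 and 65 with the ASO, and a log2 fold change of -1.38 with an adjusted p of 0.0088 when only such segments were counted.

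**Figure D4:**
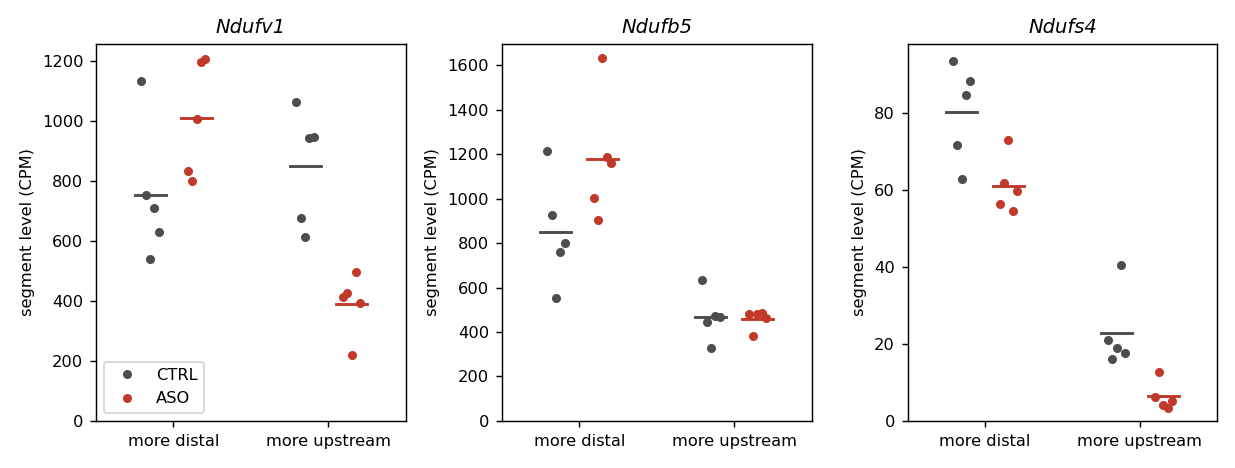
Level in CPM of a more distal and a more upstream segment of Ndufv1, Ndufb5 and Ndufs4 in each library (grey CTRL, red ASO), with a line at each group mean. The upstream segment of Ndufv1 is lower in all ASO libraries while its more distal segment overlaps between the groups, and the upstream segment of Ndufs4 is also lower in all ASO libraries.

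Most subunit transcripts are short, and short transcripts were more often higher with the ASO in the whole table. Of 303 tested genes with a canonical transcript of up to 1000 nt, 28.7% were higher and 5.94% lower, around a median log2 fold change of 0.29, and of the 12 subunits in this class 10 were higher, with a median of 0.73. Between 1000 and 2000 nt, 15.7% of 1335 genes were higher with a median of 0.08, and 7 of 10 subunits were higher and 1 lower with a median of 0.72. Between 2000 and 4000 nt, 10.4% of 2931 genes and 0 of 3 subunits were higher, and above 4000 nt, 9.68% of 3244 genes and 2 of 4 subunits were higher. In these 2 classes the median log2 fold change was -0.02 and -0.12 over all genes and 0.29 and 0.56 over the subunits, so the subunit median was above that of all genes in each class, as a description without a test.

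The 7 tested members with a match to the miR-22 seed were Ndufa10, Ndufa11, Ndufb10, Ndufb4, Ndufc1, Ndufb3 and Ndufaf7, whose sites are printed above, and 5 of them were higher, with a median log2 fold change of 0.79. Of the 28 tested members without a match, 14 were higher and 2 lower, with a median of 0.51. Over all tested genes, 11.7% were higher and 17.5% lower. All 7 members with a match except Ndufaf7 belong to the membrane arm. There, 7 of 8 tested proximal and 7 of 10 tested distal genes were higher. Whether members with and without a match differed apart from their place in the enzyme was not tested. The printed sites of these 7 lie outside the segment that held most of the gene's counts. Those of Ndufa11 and Ndufaf7 fall in a minor segment with 0.411% and 18.6% of the counts. The minor segment of Ndufa11 (chr17:57028499-57028998) had 5, 2, 2, 4 and 0 counts in CTRL and 2, 2, 2, 6 and 0 with the ASO, which overlap. The distal segment of Ndufaf7 that holds its site had 7, 4, 5, 1 and 7 counts in CTRL and 10, 14, 14, 18 and 16 with the ASO. Its CPM did not overlap between the groups, at 2.42 ± 1.30 and 6.50 ± 1.23 CPM (SD, n = 5 each). Among all tested genes, 7.98% had all ASO libraries above all CTRL libraries, and the share over segments was not determined. This segment had too few counts to be tested on its own. It is the most distal one of the gene, and the distal-over-proximal index was higher in every ASO library. The part of that index here was not tested.

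Promoters of members were searched for motifs of factors known for mitochondrial genes in RefSeq promoters on GRCm38.p6, from 250 bases before to 50 bases after each start, on both strands. The motifs were GCATGCGC for NRF1, CCGGAAG for GABP, TCAAGGTCA for ERR and AAGATGGCG for YY1, and matches to NRF1 can overlap each other because its letters are nearly their own reverse complement. RefSeq promoters were found for 42 members, some of which were not tested. NRF1 letters stood in 5 of them (11.9%), against 3.05% of 27025 genes with a promoter and 6.32% of 6094 tested genes. YY1 letters stood in 6 (14.3%), against 1.64% and 4.14%. GABP letters stood in 6 (14.3%), against 9.93% of all genes and 21.3% of tested genes, and ERR letters in none, against 0.466% and 0.312%. The windows of called members are shown on the strand of the gene with the motif, or its reverse complement, in capitals.
Ndufa8, NRF1 (chr2:36049328-36049356, minus strand): cgctggagacGCATGCGCagatggtaccg
Ndufa11, NRF1 (chr17:56717692-56717720, plus strand): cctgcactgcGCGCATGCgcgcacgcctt
Ndufb7, GABP (chr8:83566727-83566755, plus strand): gcctagatgacCCGGAAGacactgaaggg
Ndufs3, GABP (chr2:90904731-90904759, minus strand): cccgcgtccgcCCGGAAGaagagtcactg
Ndufc1, YY1 (chr3:51408915-51408943, minus strand): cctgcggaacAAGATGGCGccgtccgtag
Ndufs4, YY1 (chr13:114388045-114388073, minus strand): cgtttgcctacaggAAGATGGCGgcggtc
Ndufa9, YY1 (chr6:126849097-126849125, minus strand): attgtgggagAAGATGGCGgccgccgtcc
YY1 letters thus stood in the promoters of both lower subunits, Ndufs4 and Ndufa9, and in that of Ndufc1, which was higher. They also stood in those of Ndufaf8 and Ndufs6, which did not pass the test (log2 fold changes of 0.53 and 0.29). The remaining member with YY1 letters, Ndufs7, had 0 counts. In these 6 members the first YY1 match began after the annotated start, from base 11 in Ndufaf8 to base 36 in Ndufs4. The other called members with a motif were higher. A match says that these letters are present and not that a factor binds.

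Of 48 nuclear genes of complexes II to V in the table, 30 were tested, and 8 were higher (26.7%, against 11.7% of all tested genes) and 2 lower (6.67%, against 17.5%), and their median log2 fold change was 0.08. The 8 became 1 when CTRL replicate 4 or 5 or ASO replicate 3 or 5 was left out, 3 without CTRL replicate 2 or 3, and 5 without ASO replicate 4. The higher genes were Sdhb of complex II, Uqcr11 and Uqcrb of complex III, Cox6a2 and Cox5b of complex IV, and Atp5f1e, Atp5po and Atp5f1b of the ATP synthase. The lower genes were Sdhd, a membrane anchor of complex II, and Cox7a2l, which links complexes III and IV. With total counts, 1 was higher and 4 were lower. The median log2 fold change was -0.26 for 4 genes of complex II, 0.11 for 7 of complex III, 0.15 for 10 of complex IV and 0.27 for 9 of complex V, against 0.65 for the complex I subunits, and the difference between complexes was not tested.

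**Figure D5:**
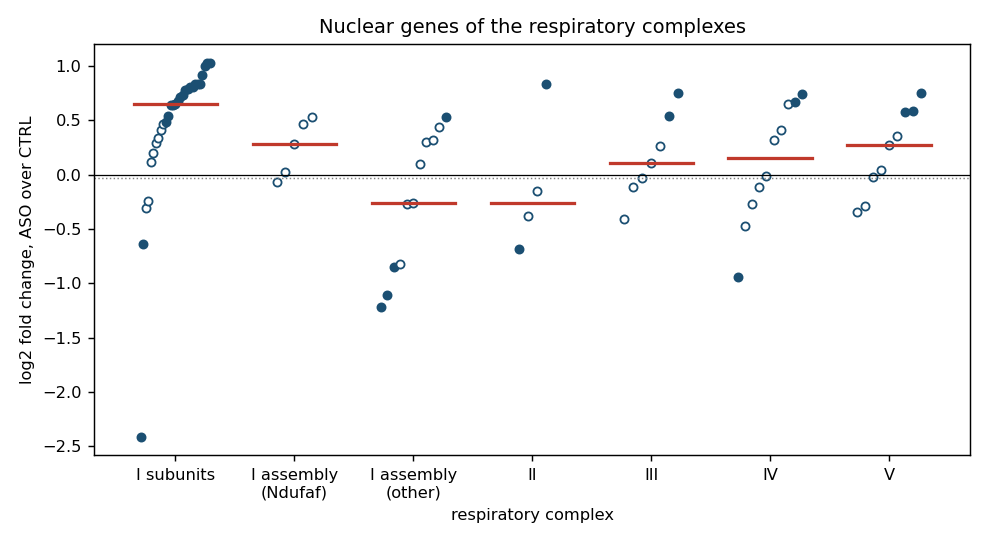
Log2 fold change (ASO over CTRL) of each tested nuclear gene of the respiratory complexes, with complex I assembly genes apart, filled points for an adjusted p under 0.05, red lines at the median of each list and a dotted line at the median of all tested genes. The median is 0.65 for complex I subunits and lies between -0.26 and 0.27 for complexes II, III, IV and V.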

How the data were processed

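GAS RNA of 5 ASO and 5 CTRL mice was sequenced as paired ends from stranded mRNA libraries. The authors used fastp for trimming, STAR with GRCm39 for alignment and featureCounts for counting pairs on exons, limited to 500 bp at the end of 3′UTRs, and deposited these counts raw. Reads that map to several places or overlap several segments are not counted under the options named. Of 52423 segments, 62 had no gene name, with 0.0197% of the counts, and 4 further sample columns were not used.

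Segments were summed per gene, and the test used edgeR 4.0.16 under R 4.3.3 on 7819 features (TMM, filter on low counts by group, quasi-likelihood test, Benjamini-Hochberg adjustment, threshold 0.05). CPM use TMM-scaled library sizes, and errors are SDs. DESeq2 1.42.0, limma-voom (limma 3.58.1), other scalings and filters, the replicate number as a block, the most distal segment, equal depth and leaving out each library were alternatives. The procedure was tested on simulated data. Library totals from 1606909 to 2632560 counts limit the precision of genes with few counts. Python 3.11.15 and pandas 2.3.3 were used. The genes and lists were chosen with earlier results of these data known. Named were the core subunits, assembly factors, up to 5 called genes per accessory group by adjusted p, the gene with the highest CPM there, genes called against their group, untested genes, called assembly genes and genes with a seed match, and the remaining members were named after their values were seen. No 2 libraries of a group agreed within sampling noise. Some results are not reported here.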

Additional observations from a re-analysis of the deposited data

Results flagged for a closer look

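In 3 of 72 groups of 5 libraries, 1 library stood apart from the others by Dixon's criterion at the 95% level, which chance alone meets in about 1 of 20 groups. ASO replicate 3 was high for Ndufs3, at 62.6 CPM, and for Ndufb4, at 415 CPM. CTRL replicate 1 was high for Ndufb3, at 273 CPM.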

How the results depend on the processing

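The direction of the complex I subunits held in most alternatives, while the number called did not. Leaving out each library gave 11 to 23 subunits higher and 2 lower, with a median log2 fold change from 0.55 to 0.82. It gave 0 to 1 Ndufaf factors higher and 0 lower, 1 to 2 other assembly genes higher and 3 lower, 1 to 11 genes of complexes II to V higher and 1 to 3 lower, and 691 to 1021 of all genes higher and 1126 to 1370 lower. Replicate numbers did not pair the mice, since the correlations of same-numbered libraries ran from -0.427 to 0.165 and 1 of 10 libraries was closest to its own number. With the replicate number as a block, 12 subunits, 0 other assembly genes and 1 gene of complexes II to V were higher, and 1 of the last was lower. With the most distal segment, 2 subunits, 0 other assembly genes and 2 genes of complexes II to V were higher and 1 other assembly gene and 1 gene of complexes II to V lower, with 322 higher and 507 lower of 5534 tested. The log2 fold change then turned to -0.13 for Ndufc2, -0.47 for Ndufab1, -1.38 for Ndufb5, -0.24 for Ndufb8, -0.10 for Ndufa4l2 and -0.15 for Dmac1. With total counts, 528 genes, 0 other assembly genes and 1 gene of complexes II to V were higher and 4 of the last lower, and Ndufc2 turned to -0.06, Ndufaf4 to -0.16, Ndufa4l2 to -0.00 and Dmac1 to -0.08. RLE scaling called 2 Ndufaf factors higher and 1 gene of complexes II to V lower, and upper-quartile scaling 3 and 1, with Ndufaf2 at 0.02. Without a filter, 5 genes of complexes II to V were higher and 1 lower. With at least 10 counts in every library, 1 subunit was lower, since Ndufa9 was no longer tested, and Ndufaf4 was at -0.01. Of complexes II to V, 28 genes were then tested instead of 30, and 1 was lower. With the segment of most counts, 0 other assembly genes and 3 genes of complexes II to V were higher, and Ndufv1 was at 0.26, Ndufaf4 at -0.10 and Dmac1 at -0.02. Without CTRL replicate 1 and ASO replicate 3, 0 genes of complexes II to V were lower. Ndufaf4 ran from -0.07 to 0.09 when a library was left out. Except where the construction of the alternative shows it, the cause was not tested. Depth limits Ndufa9, Nubpl, Ndufaf5, Ndufaf6 and Ndufv3.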
